A study of Mus musculus with 12 samples.

Results

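The interferon-stimulated genes described here are Ifit1, Ifit2, Ifit3, Rsad2, Oasl2, Ifi44, Isg15, Usp18 and Irf7, 9 of the 22923 gene symbols measured by RNA sequencing in hind leg muscle of mice. They were taken by symbol and not by their values. Each is listed on 1 row, all 9 were above 0 in all 12 libraries, and 7 passed the filter on low values. Ifit1 and Ifi44 were below 1 FPKM (fragments scaled to transcript length and to the size of the library) in every library and were not tested.

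The study asked how loss of αB-crystallin and HspB2, 2 small heat shock proteins of muscle, bears on the response to a high fat diet. There were 3 male mice of the FVB strain (FVB/N in the study's methods), 22 weeks of age, in each of 4 groups: WT on normal chow, WT on high fat diet, KO on normal chow and KO on high fat diet. The WT mice are littermates that the sample titles call flox, and the KO mice lack both Cryab, which encodes αB-crystallin, and Hspb2. The deletion is global and takes both neighbouring genes, so that neither the muscle fibre nor either gene can be singled out in these groups. High fat mice ate that diet freely from early adult life until tissue was taken.

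For 6 samples, the WT mice on high fat diet and the KO mice on normal chow, title and source name disagree with the genotype label, and the titles were followed. Cryab lay between 412 and 837 FPKM in the 6 libraries titled as WT and between 0.845 and 1.75 FPKM in the 6 titled as KO, and Hspb2 lay between 81.5 and 103.1 FPKM against 0.353 and 1.92 FPKM. Muscle markers were abundant in all libraries, with summed levels of 8 markers from 24527 to 67207 FPKM, or 18783 to 32980 FPKM without Acta1, but Myh4, a fast fibre myosin, was listed at 0 in all 12 and Acta1, the skeletal muscle actin, at 0 in WT chow mouse 1 and KO high fat mouse 2. In 3 libraries, WT chow mouse 2 and KO chow mice 1 and 3, the sum of 10 B and T lymphocyte markers lay between 93.0 and 107.6 FPKM, against at most 7.31 FPKM in the other 9. The number of reads is unknown. The smallest steps between low values put the deepest library, KO chow mouse 1, at 1.36 times the depth of the shallowest, WT chow mouse 1, which bears on genes as low as these.

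Interferons are secreted proteins that cells release when they sense foreign or misplaced nucleic acid. Type I interferons bind a receptor made of Ifnar1 and Ifnar2, the kinases Jak1 and Tyk2 then pass the signal on, and a complex that holds Stat2 and Irf9 binds the interferon-stimulated response element (ISRE) in promoters. Genes switched on this way block viral replication or adjust the response itself, and many are present at a low level in unstimulated tissue. Ifit1, Ifit2 and Ifit3 bind foreign RNA or associate with each other on it, Rsad2 (viperin) makes an antiviral nucleotide, and Oasl2 belongs to the family of 2′-5′ oligoadenylate synthetases. Ifi44 is an interferon-induced protein of the cytoplasm. Isg15 encodes a ubiquitin-like protein that is attached to other proteins, Usp18 removes it and also dampens the receptor, and Irf7 is the transcription factor that amplifies interferon production.

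The promoters of 4 members carried the ISRE core and are shown because this element defines the class. The sequences are from RefSeq on mouse build GRCm38.p6, the same build as the mm10 named in the submitters' processing notes, in windows from 250 bases before to 50 after each annotated start. The motif searched was GAAA, then NN (any pair of bases), then GAAA, on both strands, so that on the opposite strand it reads TTTC, NN and TTTC. Capitals mark the matches, each line runs 5′ to 3′ on the strand of the gene, and the first matched base lies between 156 and 66 bases before the start.

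Ifit1, plus strand, chr19:34640745-34640853: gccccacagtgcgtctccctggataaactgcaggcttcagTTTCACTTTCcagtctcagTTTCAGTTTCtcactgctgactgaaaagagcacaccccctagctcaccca

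Ifit3, plus strand, chr19:34583333-34583456: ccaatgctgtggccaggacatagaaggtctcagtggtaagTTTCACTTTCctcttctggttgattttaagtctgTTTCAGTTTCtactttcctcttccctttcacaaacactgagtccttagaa

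Isg15, minus strand, chr4:156200835-156200936: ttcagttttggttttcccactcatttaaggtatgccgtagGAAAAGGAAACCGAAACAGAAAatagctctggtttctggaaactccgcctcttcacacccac

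Rsad2, minus strand, chr12:26456523-26456612: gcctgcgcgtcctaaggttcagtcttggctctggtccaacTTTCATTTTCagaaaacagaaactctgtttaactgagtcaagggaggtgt

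Ifit1 and Ifit3 each held 2 separate matches, Isg15 held 3 that overlap in 1 run, and Rsad2 held 1. Of the 8 members with a window, 4 held the motif, against 602 of 15490 genes of the files with a window (3.89%) and 1131 of all 32851 windows (3.44%). No match was present in the windows of Ifit2, Irf7, Oasl2 and Ifi44, which says only that these letters are not in those windows. A window for Usp18 was not used here. The motif TTCNNNGAA of the interferon gamma pathway was in a window of 1 of the 8 members, Ifit2, which has 2 windows. It was in 1424 of the 15490 genes of the files (9.19%) and in 8.30% of all windows.

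The 9 genes lie on 7 chromosomes in the GENCODE M21 annotation of GRCm38. Ifit2 (chr19:34550694-34576419), Ifit3 (chr19:34583531-34588731) and Ifit1 (chr19:34640871-34650009) are neighbours on the plus strand of chromosome 19. The others are Oasl2 (chr5:114896936-114912234) and Usp18 (chr6:121245906-121270917) on plus strands and Rsad2 (chr12:26442746-26456452), Ifi44 (chr3:151730922-151749960), Isg15 (chr4:156199424-156200818) and Irf7 (chr7:141262706-141266481) on minus strands. Irf7 overlaps Phrf1 by 45 bp and Usp18 overlaps the long noncoding Gm44148 by 15715 bp, both on the opposite strand, and since strand-specific counting is not stated their reads could not be told apart there. The transcripts of Ifit3 and its copy Ifit3b, listed as I830012O16Rik, were identical at 98.0% of 1697 aligned bases, so the split of reads between them and the level of Ifit3 are uncertain. The other paralogs compared shared between 62.6% and 78.1% of aligned bases with a member.

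All 9 members were low in this muscle. Their means over the 12 mice ran from 0.229 ± 0.0679 FPKM for Ifi44 through 0.454 ± 0.151 for Ifit1, 0.934 ± 0.345 for Rsad2 and 0.985 ± 0.265 for Oasl2 (SD, n = 12). Above these came Ifit2 at 1.46 ± 0.241, Ifit3 at 1.56 ± 0.672, Usp18 at 1.62 ± 0.590, Isg15 at 1.94 ± 0.520 and Irf7 at 2.29 ± 0.942 FPKM. The levels lay at the 26.1 to 48.0 percentiles of the means of detected genes. From Ifi44 to Ifit1, from Ifit1 to Rsad2 and from Oasl2 to Ifit2 the means differed by more than the SDs, while Rsad2 and Oasl2, and each neighbouring pair from Ifit2 to Irf7, lay within 1 SD of each other.

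Among the RNA-binding Ifit proteins, Ifit1 was measured at 0.439, 0.429 and 0.332 FPKM in WT chow mice 1 to 3, at 0.377, 0.222 and 0.447 in WT high fat mice, at 0.777, 0.422 and 0.455 in KO chow mice and at 0.337, 0.676 and 0.536 in KO high fat mice. Ifit2 was at 1.12, 1.49 and 1.48 FPKM in the same order, then 0.939, 1.42 and 1.64, then 1.88, 1.36 and 1.52, and 1.54, 1.53 and 1.58 in the KO high fat mice. Ifit3 was at 0.925, 1.42 and 1.28 FPKM, then 1.35, 0.792 and 1.81, then 3.11, 1.18 and 1.19, and last 1.23, 2.37 and 2.1. KO chow mouse 1 was the highest of the 12 for all 3 genes, and KO high fat mouse 2 followed for Ifit1 and Ifit3 but not for Ifit2. The groups overlapped for each gene, except that the KO high fat mice lay just above the WT chow mice for Ifit2.

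The copy Ifit3b was at 0.938, 0.963 and 1.11 FPKM in WT chow mice, 0.656, 0.571 and 0.914 in WT high fat mice, 1.47, 0.636 and 0.834 in KO chow mice and 1.09, 1.59 and 0.918 in KO high fat mice. Like Ifit3 it was highest in KO high fat mouse 2 and KO chow mouse 1, but its group means came in another order, from WT high fat through KO chow and WT chow to KO high fat. The 2 high fat groups did not overlap, as was true in the higher direction of 13.0% of genes, and the log2 fold change of 0.35 did not pass the test (limma adjusted p = 0.323).

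For the effectors, Rsad2 was at 0.324, 0.868 and 0.649 FPKM in WT chow mice, 1.38, 0.540 and 1.13 in WT high fat mice, 1.07, 0.787 and 1.5 in KO chow mice and 0.792, 1.20 and 0.963 in KO high fat mice. Oasl2 was at 0.944, 1.15 and 0.875 FPKM, then 0.643, 0.636 and 1.04, then 1.51, 0.876 and 0.806, and last 0.914, 1.39 and 1.04. Ifi44 was at 0.184, 0.178 and 0.246 FPKM, then 0.235, 0.239 and 0.305, then 0.328, 0.158 and 0.142, and last 0.176, 0.348 and 0.204. Oasl2 and Ifi44 shared their highest 2 KO libraries with Ifit1, whereas Rsad2 was highest in KO chow mouse 3 and second highest in WT high fat mouse 1.

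Isg15, the ubiquitin-like modifier, was at 2.45, 2.43 and 2.32 FPKM in WT chow mice, 1.94, 1.44 and 1.62 in WT high fat mice, 2.47, 1.72 and 1.33 in KO chow mice and 1.73, 2.70 and 1.13 in KO high fat mice. Usp18, the protease that removes it, was at 1.04, 1.82 and 1.51 FPKM, then 1.08, 1.12 and 1.12, then 2.21, 1.41 and 1.62, and last 2.24, 2.96 and 1.33. Irf7 was at 1.78, 2.52 and 1.98 FPKM, then 1.86, 1.14 and 2.28, then 4.61, 1.73 and 3.10, and last 1.70, 3.18 and 1.67. All 3 WT chow mice were high for Isg15, all 3 WT high fat mice were low and close together for Usp18, and a pair of KO chow mice and 1 KO high fat mouse stood above the others for Irf7. Over all 9 members, each with 3 steps between the group means in order, groups next to each other in that order overlapped in every case but the step from WT chow to KO high fat for Ifit2.

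**Figure D1:**
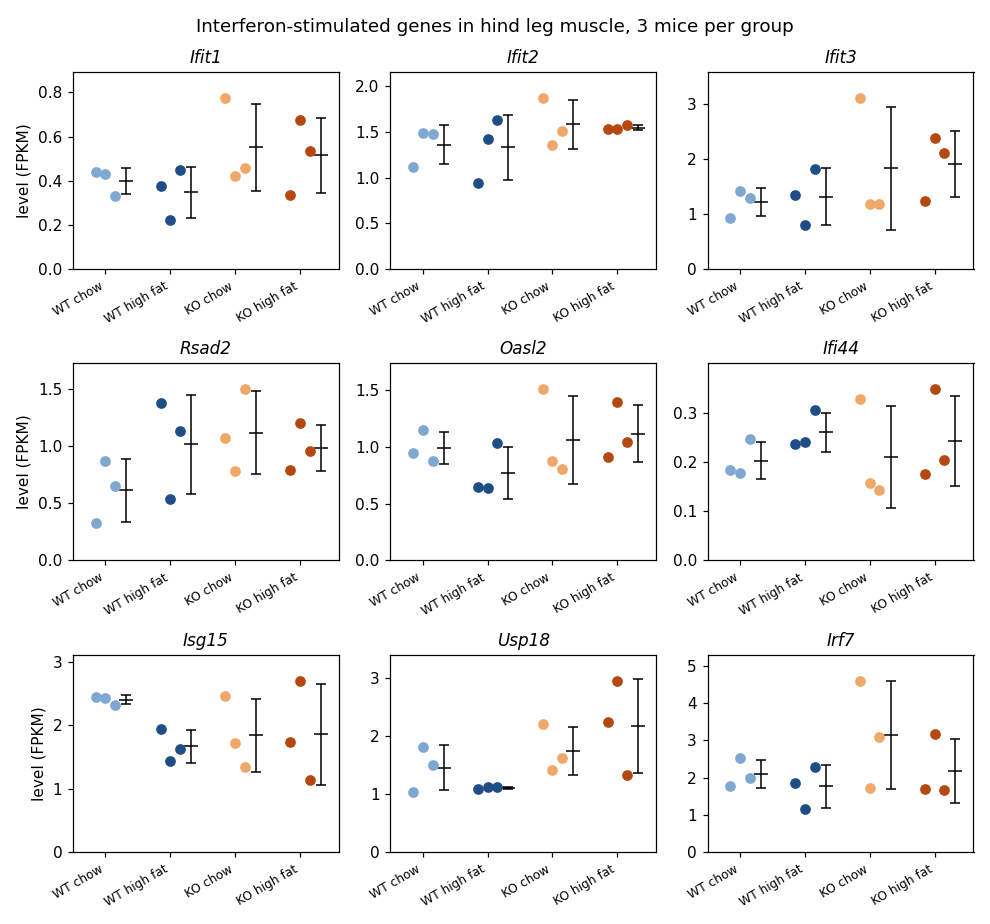
Level in FPKM (vertical axes, each starting at 0) of the 9 genes in the 4 groups. Each point is 1 mouse, and the bar beside it gives the mean and SD of 3 mice. Usp18 lies between 1.08 and 1.12 in the WT high fat mice and between 1.33 and 2.96 in the KO high fat mice, while most other groups overlap.

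KO chow mouse 1 was the highest library for 5 members, KO high fat mouse 2 for 3 and KO chow mouse 3 for 1, so that no WT mouse was highest for any. The summed level of the 9 genes was 18.0 FPKM in KO chow mouse 1 and 16.4 in KO high fat mouse 2, and between 7.55 and 12.3 FPKM, with a median of 10.6, in the other 10 mice. Each of the 2 was among the 3 highest libraries for 8 of the 9 members. WT high fat mouse 2 had the lowest sum and was lowest for 4 members. By group the sum was 10.7 ± 1.54 FPKM in WT chow, 9.58 ± 1.93 in WT high fat, 13.1 ± 4.34 in KO chow and 12.5 ± 3.32 in KO high fat mice (SD, n = 3 each), and all groups overlapped.

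**Figure D2:**
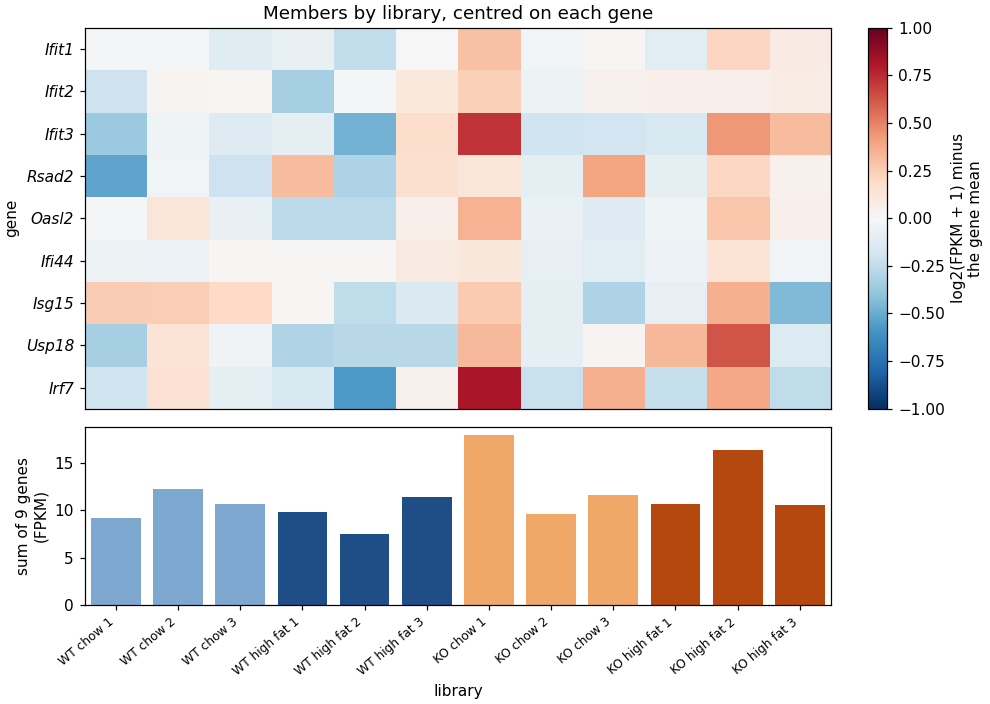
Upper panel: log2(FPKM + 1) of each gene minus its mean over the 12 libraries, red above and blue below the mean. Lower panel: sum of the 9 genes in FPKM for each library, coloured by group, highest at 18.0 in KO chow mouse 1 and 16.4 in KO high fat mouse 2.

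The members moved together across mice. Over the 12 libraries the 36 pairs of members had a median Pearson r of 0.51 on log2(FPKM + 1), and 34 pairs were above 0. The highest was 0.89, between Ifit1 and Ifit3, and the lowest was −0.18, between Isg15 and Rsad2. After the group means were taken off, the median was 0.59 and 35 of the 36 pairs were above 0, so that the shared movement lay between mice of the same group. The median over all pairs of tested genes was 0.001. The points share their libraries, depth and cell makeup, and these values are a description.

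Genes most like the mean pattern of the members included Gbp3 (r = 0.95), an interferon-induced guanylate-binding protein, Cd274 (0.93), the immune checkpoint ligand PD-L1, H2afj (0.93), a histone, Strn4 (0.91), Tspan4 (0.91), a tetraspanin, Irf1 (0.91), an interferon-regulated transcription factor, and Rbm43 (0.90), over 12 libraries. Each of these was highest in KO chow mouse 1 or KO high fat mouse 2, which follows largely from choosing genes by this r. Irf1, for example, reached 13.2 and 14.8 FPKM there and lay between 6.23 and 11.9 FPKM in the others. Of 101 other genes of the interferon pathway that were tested, 80 (79.2%) had an r above 0.5 with the members, against 2302 (19.3%) of the 11938 tested genes compared with them, and the medians were 0.67 and −0.12.

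High fat diet did not move any member past the threshold in WT mice. Comparisons used limma on log2(FPKM + 1) over 11945 genes with a Benjamini-Hochberg threshold of 0.05, and they measure only the spread between these 12 samples. Fold changes are on that scale, where 1 is added to the FPKM, and understate changes of genes at these levels. In WT mice 0 of the 7 tested members passed, and 0 had an unadjusted p under 0.05, while 0.1% and 8.12% of all genes did. The log2 fold changes ran from −0.36 for Isg15 to 0.31 for Rsad2 with a median of −0.17, against −0.01 over all genes, and 2 of 7 were above 0, as were 46.4% of all genes. The median was −0.06 without WT high fat mouse 2, where Rsad2 was higher with an unadjusted p under 0.05, beside 5.32% of all genes. It was −0.08 without WT chow mouse 2. Isg15 was 2.40 ± 0.0686 FPKM on chow and 1.67 ± 0.256 on high fat diet (SD, n = 3 each), and the 2 groups did not overlap, as was true in the lower direction of 6.88% of genes. Its 95% interval reached from −0.78 to 0.07, and its limma adjusted p was 0.695. Isg15 had an unadjusted p under 0.05 when the 2 WT groups were fitted alone, and without KO high fat mouse 2. In those fits 884 and 1028 of the 11945 genes had such a p.

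In KO mice 0 of 7 members differed between the diets by the adjusted or by the unadjusted p (limma), beside 0.0% and 11.3% of all genes. The log2 fold changes lay between −0.35 for Irf7 and 0.19 for Usp18, with a median of −0.01 against 0.03 over all genes, and 3 of 7 were above 0, beside 56.0% of all genes. Without the 3 lymphocyte-rich libraries, of which 2 are KO chow mice, 7 of 7 were above 0 with a median of 0.17. A single KO chow mouse was then left and was assumed to vary like the other groups. Without KO chow mouse 1 alone 5 of 7 were above 0 with a median of 0.14, but without KO chow mouse 3 alone 2 of 7, with −0.04. Quantile normalization with all mice gave 6 of 7 and a median of 0.10. Averaged over the genotypes, 0 of 7 members passed (limma, 0 also by the unadjusted p), beside 0.0586% and 13.9% of all genes. The median was −0.02, and 2 of 7 were above 0, beside 52.6% of all genes. Without the lymphocyte-rich libraries 6 of 7 were above 0, and 5 of 7 without KO chow mouse 1 alone or after quantile normalization.

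Usp18 was the tested member with the largest difference between the genotypes on high fat diet and averaged over the diets. On high fat diet the WT mice had 1.11 ± 0.0224 FPKM and the KO mice 2.18 ± 0.818 (SD, n = 3 each), all 3 KO mice above all 3 WT mice, which 13.0% of genes also were. The log2 fold change was 0.56 ± 0.19 (SE) with a 95% interval from 0.14 to 0.97 and did not pass the adjusted threshold (limma adjusted p = 0.177, unadjusted 0.013). Without KO high fat mouse 2 it was 0.38, with a limma adjusted p of 0.450 and an unadjusted p of 0.064. None of the 7 members passed in this comparison and 1 had an unadjusted p under 0.05, beside 0.109% and 16.2% of all genes. Of the 7, 6 were above 0, as were 47.1% of all genes, with Rsad2 at −0.00352, and the median was 0.19 against −0.01 over all genes. The count above 0 was 4 of 7 without KO high fat mouse 2.

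On normal chow 0 of 7 members differed between KO and WT mice by either p (limma), beside 0.0586% and 16.7% of all genes. The log2 fold changes ran from −0.28 for Isg15 to 0.40 for Rsad2, with a median of 0.16 against −0.03 over all genes, and 6 of 7 were above 0, beside 45.0% of all genes. This depended on single mice, since 4 of 7 were above 0 with a median of 0.05 without KO chow mouse 1, and the median was also 0.05 without WT chow mouse 1 but 0.27 without WT chow mouse 2 and 0.25 without KO chow mouse 2. Rsad2 had an unadjusted p under 0.05 without WT chow mouse 2, WT high fat mouse 2 or KO chow mouse 2, and Irf7 without KO chow mouse 2. Of all genes 11.7%, 6.35% and 13.3% were higher by that p in these fits. Without the lymphocyte-rich libraries the median was 0.04, with 4 of 7 above 0, and after quantile normalization 0.03, again with 4 of 7.

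Averaged over the diets, the difference of Usp18 between the genotypes was 0.36 ± 0.13 (SE) on the log2 scale, with a 95% interval from 0.07 to 0.66 (limma adjusted p = 0.126, unadjusted 0.020). Usp18 was the only 1 of 7 tested members with an unadjusted p under 0.05, and 0 passed the adjusted threshold, beside 26.5% (13.1% in the higher direction) and 0.862% of all genes. The unadjusted p of Usp18 was over 0.05 without WT chow mouse 1, KO chow mouse 1 or KO high fat mouse 2, and without the lymphocyte-rich libraries. Of the 7 members 6 were above 0, from 0.13 for Ifit2 to 0.36, and Isg15 was at −0.11, where 44.4% of all genes were above 0. The median of 0.20, against −0.02 over all genes, was 0.12 without the lymphocyte-rich libraries and 0.06 after quantile normalization, which left 5 of 7 above 0. Without the filter, Ifit1 had a log2 fold change of 0.15 (limma adjusted p = 0.276) and Ifi44 one of −0.01 (limma adjusted p = 0.934).

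The effect of diet was not shown to differ between the genotypes for any member. In the interaction 0 of 7 passed, and 0 had an unadjusted p under 0.05 (limma), beside 0.0% and 6.25% of all genes, and the differences ran from −0.40 for Rsad2 to 0.39 for Usp18. Their SEs lay between 0.18 and 0.37, so that 95% intervals such as that of Usp18, from −0.19 to 0.98, hold differences in both directions. Without KO high fat mouse 3, Isg15 and Usp18 had an unadjusted p under 0.05, as did 624 of 11945 genes. Rsad2 had such a p without WT high fat mouse 2, as did 697 of 11945 genes.

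**Figure D3:**
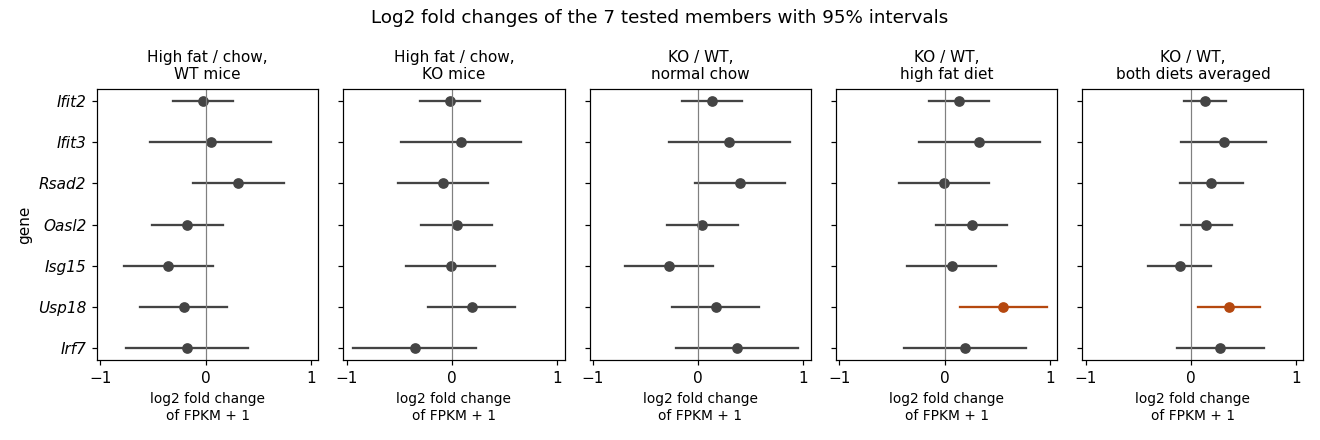
Log2 fold change of FPKM + 1 (horizontal axis) of the 7 tested members in 5 comparisons, with 95% intervals from limma. Orange marks an unadjusted p under 0.05, reached by Usp18 between KO and WT on high fat diet (0.56) and averaged over the diets (0.36).

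Markers of several other cell types moved with the members, though not in every library. The summed level of 9 macrophage markers lay between 112 and 149 FPKM in WT chow mice, 40.1 and 117 in WT high fat mice, 177 and 230 in KO chow mice and 133 and 293 in KO high fat mice, and none of the 9 markers was at 0 in all libraries. Averaged over the diets, 9 of 9 had an unadjusted p under 0.05 and were higher in KO mice, as were 13.1% of all genes, with a median log2 fold change of 0.92, and on high fat diet, where Usp18 differed most, 8 of 9 did, beside 9.79% of all genes, with a median of 1.18. KO high fat mouse 2 and KO chow mouse 1, the highest for the members, were also the highest for macrophage markers, at 293 and 230 FPKM. Over the 12 libraries the members' mean pattern had an r of 0.58 with macrophage, 0.53 with lymphocyte, 0.60 with dendritic cell, 0.67 with adipocyte and 0.06 with neutrophil markers, of −0.36 with endothelial markers, and of −0.52 with muscle markers or −0.62 without Acta1.

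The members' sums did not go with the macrophage or the lymphocyte markers in every library. KO chow mouse 2 and KO high fat mouse 1 had macrophage sums of 177 and 188 FPKM, above every WT mouse. Their member sums were 9.64 and 10.7 FPKM. WT high fat mouse 1, lowest for macrophage markers at 40.1 FPKM, had a member sum of 9.80 FPKM. The member sums were 12.3, 18.0 and 11.7 FPKM in the 3 lymphocyte-rich libraries, and 16.4 FPKM in KO high fat mouse 2, where the lymphocyte markers summed to 3.27 FPKM. The muscle markers without Acta1, which is listed at 0 in that mouse, summed to 24527 FPKM there, to 19149 in KO chow mouse 1 and to 18783 in KO chow mouse 3. The 5 adipocyte markers, none at 0 in all libraries, summed to between 583 and 2051 FPKM in WT chow and 590 and 1618 in WT high fat mice. In KO chow mice the sums lay between 1962 and 4266 FPKM and in KO high fat mice between 1654 and 2078. Averaged over the diets, 4 of the 5 markers were higher in KO mice by the unadjusted p, beside 13.1% of all genes. The part of these cell types in the members' levels was not tested, and in RNA of whole muscle, fewer cells of a type and less RNA per cell cannot be told apart.

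**Figure D4:**
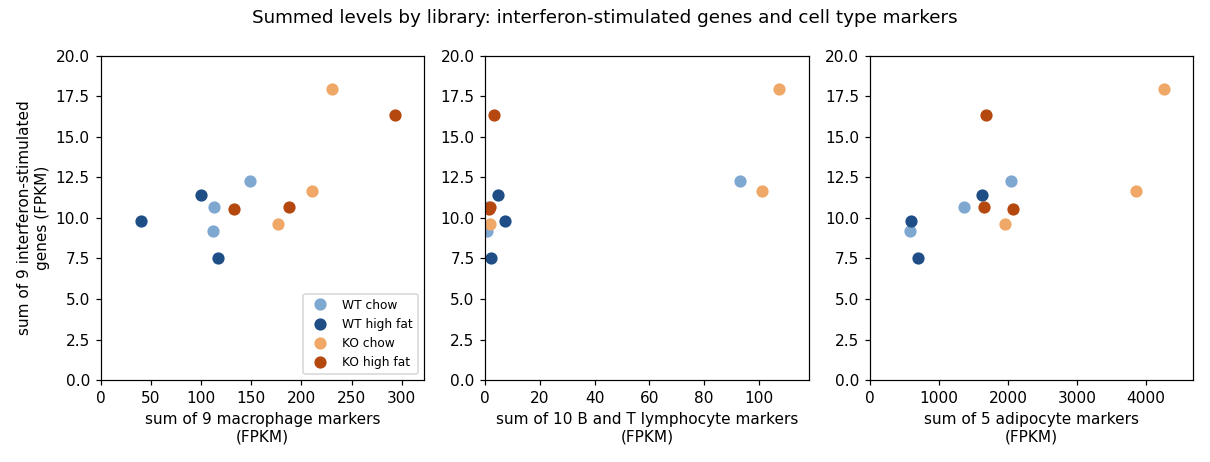
Sum of the 9 interferon-stimulated genes (vertical axis, FPKM) against the sums of macrophage, B and T lymphocyte and adipocyte markers (horizontal axes, FPKM), 1 point per library, coloured by group. KO chow mouse 1 (18.0) and KO high fat mouse 2 (16.4) lie highest and have the highest macrophage sums, 230 and 293.

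The interferons themselves were listed at or near 0. Of 21 ligands listed in the files, 18 were at 0 in all 12 libraries, and the highest value of the others was 0.169 FPKM, for Ifng in WT chow mouse 2. Ifng was above 0 in 4 libraries, Ifnab in 3 and Ifnk in 1, and none was tested. A value of 0 in these files does not show absence, since Myh4 was also listed at 0 throughout.

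All 5 tested receptors had higher means than the members, from 3.98 FPKM for Ifnar1 up, while Il28ra, at 0.0625 FPKM, was not tested. Ifngr2 and Ifngr1, the chains of the interferon gamma receptor, had means of 46.4 ± 7.90 and 28.5 ± 5.28 FPKM, and Ifnar2, the type I receptor chain, 11 ± 3.38 FPKM (SD, n = 12). Of 5 tested receptors 0 passed in any comparison (limma). Averaged over the diets 3 had an unadjusted p under 0.05 and were higher in KO mice, beside 13.1% of all genes. These were Ifnar2 at 0.59 ± 0.16, Il10rb at 0.35 ± 0.12 and Ifngr1 at 0.32 ± 0.10 (log2 fold change ± SE), with limma adjusted p of 0.072, 0.110 and 0.096. Ifngr2 was lower in KO mice by the unadjusted p, at −0.27 ± 0.12 averaged over the diets and at −0.45 ± 0.16 on normal chow (limma adjusted p = 0.163 and 0.281). Of all genes 13.4% and 9.93% were lower by that p. Averaged over the diets, the p of Ifngr2 was not under 0.05 without mouse 1 or 3 of WT chow, WT high fat or KO chow. The same held without KO high fat mouse 1 or 2, and with the replicate number as a block. Ifnar2, the chain that binds type I interferon, was at 6.85, 11.6 and 8.91 FPKM in WT chow, 7.23, 6.66 and 10.3 in WT high fat, 17.3, 9.84 and 14.9 in KO chow and 11, 14.2 and 12.9 in KO high fat mice.

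Of 11 signal transducers, 9 were above 0 between KO and WT averaged over the diets, beside 44.4% of all genes, with a median of 0.14. Only 1, the kinase Tyk2, had an unadjusted p under 0.05 (0.19 ± 0.06, limma adjusted p = 0.109), where 13.1% of all genes were higher. Irf9 was at 0.14 and Stat2 at 0.11 (limma adjusted p = 0.429 and 0.552). Jak1, the most abundant at 36.7 ± 4.50 FPKM (SD, n = 12), was at −0.12 ± 0.11 between the diets. Irf2, a repressor of interferon responses, was lower on high fat diet by the unadjusted p, at −0.20 ± 0.08 (limma adjusted p = 0.301), as was Irf3 in KO mice at −0.21 ± 0.09 (limma adjusted p = 0.440). Each was the only 1 of the 11 that was lower there by that p, beside 5.94% and 4.73% of all genes. The unadjusted p of Irf3 ran up to 0.162 (limma) when each mouse was left out in turn.

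Of 12 tested nucleic acid sensors and adaptors, 11 were above 0 between the genotypes averaged over the diets, beside 44.4% of all genes. Tlr7, the endosomal sensor of single-stranded RNA, was at 0.51 ± 0.11, the lowest adjusted p of the pathway (limma adjusted p = 0.055). It was at 0.622, 1.22 and 0.647 FPKM in WT chow, 0.284, 0.610 and 0.396 in WT high fat, 1.52, 1.20 and 1.5 in KO chow and 1.16, 1.43 and 0.957 in KO high fat mice, and is a gene of macrophages and dendritic cells among others. Zbp1, a sensor that is itself interferon-induced, was at 0.66 ± 0.22 and Myd88, the adaptor of Tlr7, at 0.26 ± 0.11 (limma adjusted p = 0.108 and 0.156). Mavs, the mitochondrial adaptor, was the most abundant and was at −0.14 ± 0.08 on high fat diet (limma adjusted p = 0.387).

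Of 43 other effectors that were tested, 40 were above 0 between KO and WT averaged over the diets, beside 44.4% of all genes, with a median of 0.16. Of these effectors 11 had an unadjusted p under 0.05, all higher, beside 13.1% of all genes. Without the lymphocyte-rich libraries the median was 0.08. The count of 11 was 6 without WT high fat mouse 1, 7 without WT chow mouse 1, WT high fat mouse 2, KO chow mouse 1 or KO chow mouse 3, and 18 without KO chow mouse 2. Over all genes the share higher then ran from 10.1% to 16.9%. Tor3a, an interferon-responsive ATPase of the endoplasmic reticulum, was at 0.42 ± 0.09, Mnda at 0.62 ± 0.14 and Ifi204 at 0.48 ± 0.12, the last 2 being nuclear proteins of the same family found in myeloid cells (limma adjusted p = 0.056, 0.059 and 0.065). Ifi27l2a, the most abundant at 194 ± 125 FPKM (SD, n = 12), was at 1.85 ± 0.82 (limma adjusted p = 0.178), or 1.09 without WT high fat mouse 1, and ranged from 5.26 FPKM in WT high fat mouse 1 to 398 in KO chow mouse 1.

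All 26 tested targets of the interferon gamma type were above 0 between the genotypes averaged over the diets, beside 44.4% of all genes, with a median of 0.36. They were mostly genes of antigen presentation and guanylate-binding proteins, and 8 had an unadjusted p under 0.05, beside 13.1% of all genes higher. That count was 4 without WT chow mouse 1 or KO chow mouse 1 and 5 without WT high fat mouse 2. It was 12 or 13 without KO high fat mouse 3 or 1, 13 without KO chow mouse 2 and 14 without WT chow mouse 2. Without the lymphocyte-rich libraries, which leaves a single KO chow mouse, the median was 0.29. KO high fat mouse 2 stood far above the others for the interferon-inducible GTPases Igtp (52.3 FPKM, at most 9.43 elsewhere), Iigp1 (35.1, at most 5.72), Irgm2 (28.8, at most 8.43) and Irgm1 (22.9, at most 9.66), which were named after their values were seen. Without that mouse 23 of 26 targets were above 0, with a median of 0.31, and 7 had an unadjusted p under 0.05, beside 10.9% of all genes higher. In the fits without 1 mouse named for this list, the share of all genes higher ran from 10.1% to 16.9%. B2m, the light chain of MHC class I, was at 0.70 ± 0.26, Tapbp, which loads peptides on it, at 0.45 ± 0.15 and Gbp2 at 0.56 ± 0.18 (limma adjusted p = 0.125, 0.099 and 0.101). Ubd, a ubiquitin-like modifier, had its lowest p for the diet and not for the genotype. It lay between 0.06 and 0.84 FPKM in the 6 chow mice, at 0.00, 2.78 and 7.61 in WT high fat mice and at 8.43, 14.5 and 15.4 in KO high fat mice, and its log2 fold change averaged over the genotypes was 2.30 ± 0.42 (limma adjusted p = 0.075). Without WT high fat mouse 1, where it was listed at 0 and where the macrophage markers were lowest and the neutrophil markers highest, it was 2.72 and passed (limma adjusted p = 0.0034). In KO mice alone it passed without WT high fat mouse 1 (limma adjusted p = 0.0096) and when the 2 KO groups were fitted alone (0.0175). Of all genes 0.151%, 0.0837% and 0.0586% passed in these fits. Averaged over the genotypes, the limma adjusted p of Ubd ran up to 0.201 when each mouse was left out in turn.

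Of the 9 tested negative regulators, which include Usp18, 6 were above 0 averaged over the diets, beside 44.4% of all genes. Samhd1, a nucleotide hydrolase that limits sensing, was at 0.28 ± 0.12 (limma adjusted p = 0.149), and the most abundant, Usp25, at −0.23 ± 0.11 (limma adjusted p = 0.199).

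Over the 101 tested pathway genes other than the members, 0 passed the adjusted threshold (limma) in any comparison with all 12 mice in the fit. Between KO and WT averaged over the diets, 91 (90.1%) were above 0, against 44.4% of all genes, and 27 (26.7%) were higher by the unadjusted p, against 13.1% of all genes, and 1 lower. The 27 became 17 without WT chow mouse 1 or KO chow mouse 1, 18 without WT high fat mouse 2, 43 without WT chow mouse 2 and 48 without KO chow mouse 2. Over all genes the share higher was then 10.1%, 10.3%, 11.7%, 15.5% and 16.9%. On high fat diet 18 (17.8%) were higher and 0 lower by the unadjusted p, against 9.79% of all genes higher. That count was 8 without KO high fat mouse 2 or WT high fat mouse 2, 9 without WT high fat mouse 1 and 27 without KO high fat mouse 1, when 6.61%, 8.16%, 6.18% and 8.84% of all genes were higher. On normal chow 7 (6.93%) were higher and 1 lower, against 6.73% of all genes higher. The 7 became 1 without WT chow mouse 1, KO chow mouse 1 or the lymphocyte-rich libraries, 2 without WT chow mouse 3 or KO chow mouse 3, 11 without KO high fat mouse 2, 29 without WT chow mouse 2 and 37 without KO chow mouse 2, and over all genes the share then ran from 1.46% to 13.3%. Averaged over the diets without the lymphocyte-rich libraries, 13 (12.9%) were higher and 0 lower, against 7.51% of all genes higher, and 88 were above 0. Without KO chow mouse 2, 15 of the 101 passed the adjusted threshold, Tlr7, Tor3a, Mnda, Ifi204, Ifnar2, Ifngr1, Ifngr2, Il10rb, Zbp1, Myd88, Samhd1 and Tapbp among them, when 1208 of all genes (10.1%) passed against 103 with all mice. Without WT high fat mouse 3 there were 9, beside 4.11% of all genes, and without WT chow mouse 2 there were 3, beside 2.81%. On high fat diet, Lgals3bp and Ubd passed without WT high fat mouse 3, when 0.686% of all genes did.

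With the diet, 22 of the 101 (21.8%) were above 0 in WT mice and 35 (34.7%) in KO mice, against 46.4% and 56.0% of all genes. Without the lymphocyte-rich libraries, which leaves a single KO chow mouse, 56 and 75 were above 0. The medians then turned from −0.11 to 0.03 and from −0.09 to 0.15. In WT mice the count was also 56 without WT chow mouse 2 alone. In KO mice it was 52 without KO chow mouse 1, 36 without KO chow mouse 3, 21 without KO chow mouse 2 and 17 without KO high fat mouse 2.

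**Figure D5:**
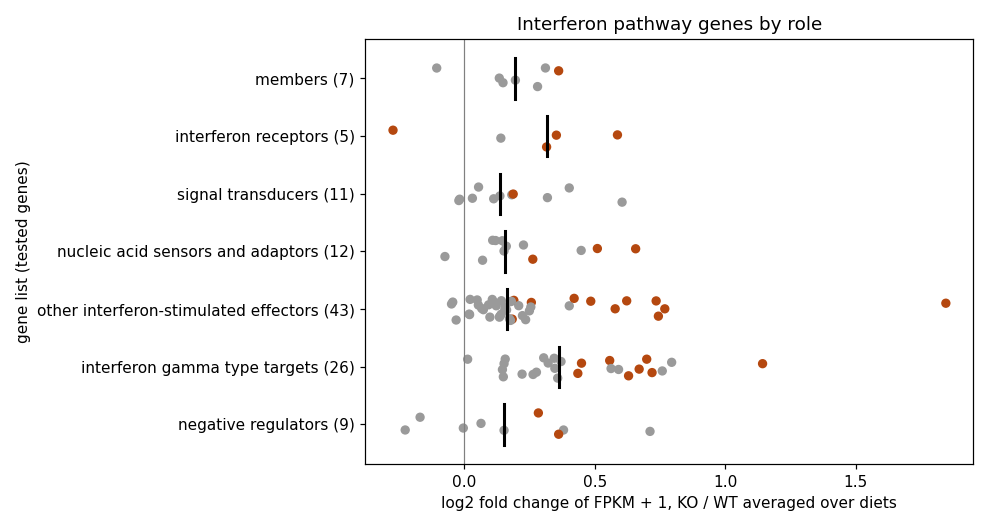
Log2 fold change of FPKM + 1 between KO and WT averaged over the diets (horizontal axis) for the tested genes of each list, 1 point per gene, with the number of tested genes in brackets. Orange marks an unadjusted p under 0.05 and the black bar the median, 0.20 for the members and 0.36 for the interferon gamma type targets. Usp18 is drawn both as a member and as a negative regulator.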

How the data were processed

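Total RNA of hind leg muscle was sequenced with 100-bp paired-end reads, and the submitters' processing notes name TopHat2 2.0.8b, Cuffdiff 2.1.1 and mm10. The authors deposited 1 value per gene row (23179 rows) and library on an FPKM scale, read from the values, without pooled replicates. Rows were matched by symbol. The 9 members and the other lists were chosen with earlier results of these data known.

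The filter kept the 11945 genes that reached 1 FPKM in 3 or more samples. Their log2(FPKM + 1) was fitted in R 4.3.3 by limma 3.58.1 as 4 group means over all 12 samples, the variance following the intensity, and Benjamini-Hochberg adjustment covered all of them. The fit was checked on simulated data for 1 comparison, the genotypes on high fat diet. The changes put in were larger than those of the members, in genes above the level of most members. The check therefore does not show how well differences of the members would be found. Members were all named, with statistics where the unadjusted p was under 0.05 or another rule of the results asked for them; of each other list, genes past the threshold, the most abundant and those with the lowest p were named, at most 4, and the 8 genes most alike in pattern, of which 1 is not reported here. Stat2 and Irf9 were added as factors that bind the ISRE. Positions are from GENCODE M21 (20499 of 22923 symbols found). Other values used Python 3.11.15, NumPy 2.4.6, SciPy 1.17.1, pandas 2.3.3 and Matplotlib 3.10.9. Of 12 correlations between deviations of same-numbered samples, 2 were above 0.1, so the numbers were not taken as pairs.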

Additional observations from a re-analysis of the deposited data

How the results depend on the processing

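In each of the 7 comparisons, 0 members passed with all samples, with a pseudocount of 0.1, without the filter on low values, with the replicate number as a block, in the groups compared alone (for the 4 comparisons of 2 groups), after quantile normalization, under robust moderation, without each library in turn (lowest 0, highest 0 members) and without the 3 lymphocyte-rich libraries, the last chosen after seeing the data. The lowest adjusted p of a member in any of these was 0.076, for Usp18 averaged over the diets without KO high fat mouse 3. With the replicate block, Usp18 had an adjusted p of 0.254 between the genotypes on high fat diet against 0.177 without it, and the block called 0 members. The log2 fold change of Usp18 there ran from 0.38 to 0.85. The median of the interaction of the 7 members, 0.04 with all libraries, was 0.34 without KO chow mouse 1 and 0.28 without the lymphocyte-rich libraries. Medians of the diet comparisons took both signs in KO mice, from −0.07 to 0.17, and averaged over the genotypes, from −0.10 to 0.06. In WT mice they stayed below 0, from −0.27 to −0.06. Depth limits Ifit1 and Ifi44 most, and with 3 mice a group the SEs of 0.13 to 0.26 of pairwise log2 fold changes of the tested members are as large as most of the differences. The fit called 103 of all genes between the genotypes averaged over the diets, 1208 without KO chow mouse 2, 46 without WT high fat mouse 1 and 11 without the lymphocyte-rich libraries.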
